A study of Mus musculus with 25 samples.

Results

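The tripartite motif (TRIM) genes of mouse macrophages were followed through classical activation, alternative activation and LPS treatment of a macrophage cell line. Members were all gene symbols that begin with Trim and a number, and 67 of the 24411 symbols in the count tables met this rule. RNA-seq was done on 25 libraries in 9 conditions. Bone marrow-derived macrophages (BMDMs) of C57BL/6 mice, grown for 4 days in 25 ng/ml M-CSF, the growth factor that drives macrophage differentiation, formed 7 groups of 3 libraries: untreated control cells labelled as cultured for 4 h, cells primed with 100 U/ml IFN-γ and given 100 ng/ml LPS for 1, 4, 12 and 24 h, and cells given 10 ng/ml IL-4 or 10 ng/ml IL-13 for 12 h. RAW264.7, a macrophage line raised from a tumour of a BALB/c mouse, was grown in RPMI, where BMDMs were in DMEM, and formed 2 groups of 2 libraries, untreated and given 100 ng/ml LPS without IFN-γ for 4 h. The length of the IFN-γ priming is not given in the sources used here, no group received IFN-γ alone, and the same 3 control libraries served every comparison of a BMDM treatment with untreated cells. The study describes the libraries of both cell types as biological replicates from independent RNA. Whether those of RAW264.7 came from separate cultures, or those of BMDMs from separate mice or cultures, is not stated. The p-values therefore measure the spread between these libraries, which may be technical.

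TRIM proteins carry a RING finger, B-box zinc fingers and a coiled coil, followed in most members by a C-terminal domain such as the PRY/SPRY domain, and many are E3 ubiquitin ligases. A large part of the family acts in innate immunity: some members attach ubiquitin to sensors and adaptors of the RIG-I, STING and Toll-like receptor pathways, and others block viruses directly. Many of these genes are switched on by interferons through binding sites for interferon regulatory factors (IRFs), among other factors. Other branches of the family bind chromatin, microtubules or RNA.

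Levels are given as CPM, the sense-strand counts scaled to library size, itself rescaled by TMM factors, without the ribosomal RNA precursor Rn45s. Of the 67 members, 34 had enough counts to be tested in at least 1 comparison, and 18 had at least 10 counts in all 25 libraries. The other 33 were too low to read. Of these, 17 were at 0 in all 25 libraries: Trim15, Trim30e-ps1, Trim31, Trim38, Trim40, Trim42, Trim43b, Trim50, Trim52, Trim54, Trim60, Trim61, Trim63, Trim67, Trim71, Trim75 and Trim80. Trim38 was at 0 on both strands in every library, and whether the annotation used for counting is the reason was not tested. A further 16 had a few counts: Trim62 reached 9 counts in its highest library, Trim6 reached 10, Trim46 reached 9, Trim34b reached 11, Trim66 reached 4, Trim17 and Trim29 reached 2, and Trim7, Trim9, Trim10, Trim43a, Trim43c, Trim55, Trim58, Trim69 and Trim72 reached 1. For these 33 genes no level or change is read as a result. Changes of Trim6, Trim34b and Trim62 are named below only as effects of keeping every gene of at least 1 count. The list of innate and antiviral members used below also holds Trim5 and Trim30c, whose symbols are not among those counted, so they could not be analysed.

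Of the 67 members, 9 lie in 1 stretch of chromosome 7, chr7:104218793-104535361 (GENCODE M21 on mm10, the source of all gene positions below), the mouse counterpart of the region that holds the retrovirus restriction gene TRIM5 in primates: Trim6, Trim34a, Trim12a, Trim34b, Trim12c, Trim30b, Trim30a, Trim30d and Trim30e-ps1. Promoters were available from RefSeq (GRCm38.p6) as 250 bases before to 50 bases after each annotated start, for 11 of the 13 members that rose under IFN-γ-primed LPS and 10 of the 17 other members tested in the time course. They were searched on both strands for GAAANNGAA, the tandem core bound by IRFs. Matches may overlap. The windows below are shown because they come from the 7 members that rose and held the IRF core near the start, 5 of them in the stretch on chromosome 7. Each holds 70 bases in the direction of transcription, with the IRF core, in either orientation, in capitals.
Trim30a, chr7:104465189-104465258, minus strand: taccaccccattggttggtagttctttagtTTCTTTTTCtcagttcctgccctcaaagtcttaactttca
Trim30d, chr7:104507850-104507919, minus strand: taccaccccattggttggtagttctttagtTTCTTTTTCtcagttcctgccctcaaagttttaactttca
Trim12a, chr7:104315466-104315535, minus strand: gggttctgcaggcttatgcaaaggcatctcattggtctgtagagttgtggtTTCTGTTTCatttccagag
Trim12c, chr7:104353338-104353407, minus strand: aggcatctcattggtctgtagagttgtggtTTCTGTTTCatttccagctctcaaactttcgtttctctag
Trim34a, chr7:104244417-104244486, plus strand: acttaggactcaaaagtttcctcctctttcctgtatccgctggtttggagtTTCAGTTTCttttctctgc
Trim21, chr7:102565453-102565522, minus strand: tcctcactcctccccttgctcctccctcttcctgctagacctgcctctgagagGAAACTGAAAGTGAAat
Trim25, chr11:88999363-88999432, plus strand: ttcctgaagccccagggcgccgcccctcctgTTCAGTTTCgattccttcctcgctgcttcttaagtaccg

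The Trim30a and Trim30d windows were identical at 69 of 70 bases. The windows of Trim12a and Trim12c, aligned on the motif, were identical at 47 of 49 bases. In Trim21, a pair of overlapping cores made the longer run in capitals. The IRF core occurred in 8 of the 11 members that rose and had a promoter (72.7%), which were Trim12a, Trim12c, Trim21, Trim25, Trim26, Trim30a, Trim30d and Trim34a. It occurred in 0 of the 10 other members tested in the time course, in 1 of the 4 members tested only in other comparisons (Trim2, in 1 of its 5 promoters), in 2 of 26 members too low to read (7.69%), and in 9.76% of all 27025 genes of the promoter table. In 7 of these 8 members that rose, the match lay between 40 bases before and 27 bases after the start, and in Trim26 it began 159 bases before the start. Trim13, Trim30b and Trim56 rose without the core in the window, which says only that these letters were not there. Trim14 and Trim36 had no entry.

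**Figure D1:**
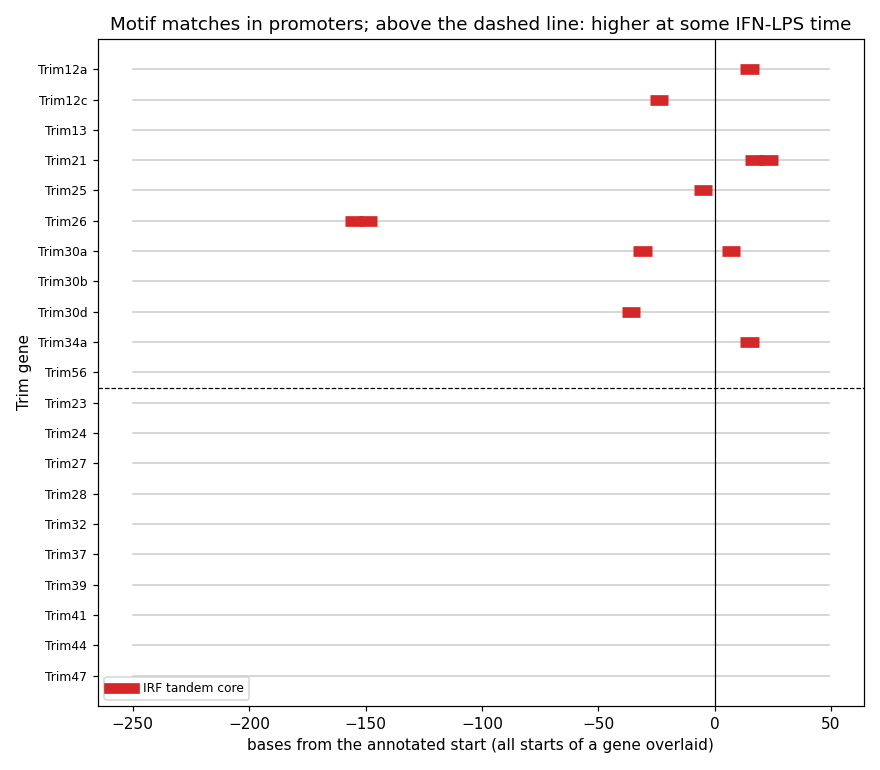
Positions of motif matches in the promoters of the 21 Trim genes with an entry that were tested in the time course, in bases from the annotated start (x axis). Genes above the dashed line rose at some time of IFN-γ-primed LPS, and 8 of these 11 carry a red mark (IRF tandem core), mostly close to the start, and 0 of the 10 genes below it do.

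The libraries held 2378639 to 3357300 counts in genes, 1502618 to 2532496 of them outside Rn45s. With library sizes rescaled by TMM factors, 1 count was worth 0.347 to 0.870 CPM, and members under a few CPM are known only coarsely. Of 8 macrophage markers in the tables, 8 were detected in every BMDM group and 7 in RAW264.7, where Mertk was at 0. The summed level of 7 neutrophil and granulocyte markers moved with treatment, from 13.5 to 23.2 CPM in control libraries to 37.4 to 51.8 at 4 h, with Mpo and Elane at 0 in both groups. The summed level of 4 stromal markers ran from 50.5 to 104 CPM over the BMDM libraries and was 0 in RAW264.7. Of 5 T cell markers, Cd3d, Cd3e, Cd3g and Cd8a were at 0 in all groups, and Cd4 measured 8.96 to 12.2 CPM in control libraries, 2.14 to 2.95 at 24 h and up to 12.5 with IL-13. All 4 erythroid markers were at 0, and the summed markers of B cells, NK cells, dendritic cells and mast cells reached at most 4.21 CPM in any library. The part of these in the results on the family was not tested. Of the Rn45s counts, 0.0386% to 0.122% were antisense in the BMDM groups of control and IFN-γ-primed LPS up to 12 h (12 libraries), against 0.00603% to 0.0214% in the 24 h, IL-4 and IL-13 groups (9 libraries). In RAW264.7 the share was 0.0199% to 0.0283% (4 libraries). In comparisons of the 24 h, IL-4 or IL-13 group with the other BMDM groups, this split and the treatment cannot be told apart. The part of the split in any comparison was not tested.

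IFN-γ-primed LPS raised a large group of TRIM genes by 4 h. It lowered 4, a share near that of all genes. A member was called when the quasi-likelihood test of edgeR gave an adjusted p (Benjamini-Hochberg, over all 9568 genes tested in the time course) of at most 0.01 and the log2 fold change was at least 1.5 in size. At 1 h, 1 of 30 tested members was higher (3.33%, against 5.04% of all genes) and 0 were lower (2.08% of all genes), with 12 lower at an unadjusted p under 0.05 by edgeR, 7 by DESeq2 and 0 called by DESeq2. At 4 h, 12 of 30 were higher (40%, against 11.4% of all genes) and 4 were lower (13.3%, against 11.4%). At 12 h, 10 were higher (33.3%, against 8.87%) and 3 lower (10%, against 8.42%). At 24 h, 8 were higher (26.7%, against 7.93%) and 2 lower (6.67%, against 6.93%). Without the fold cutoff, 20% of tested members passed the adjusted p at 1 h, 76.7% at 4 h, 56.7% after 12 h and 53.3% after 24 h, and the shares of all genes were 26%, 51.5%, 47.3% and 45.2%. Over the course, 13 members were higher at 1 or more times (43.3%, against 14.5% of all genes) and 4 were lower (13.3%, against 16.4%). None was called at all 4 times, and 8 were higher at 4, 12 and 24 h alike. Trim30b is in all these counts of higher members from 4 h on. It was at 0 counts in all control libraries and passed the filter only through the groups where it was high. Its rise in these counts was thus fixed in advance. The median log2 fold change of the 30 tested members at 4 h was -0.02, beside -0.07 for all genes. The summed level of all members ran from 868 to 916 CPM in the 3 control libraries, from 828 to 832 at 1 h, from 2870 to 3135 at 4 h, from 2465 to 2523 after 12 h and from 1994 to 2004 after 24 h. In bulk RNA, a change in the share of cells that express a gene and a change in RNA per cell cannot be told apart.

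**Figure D2:**
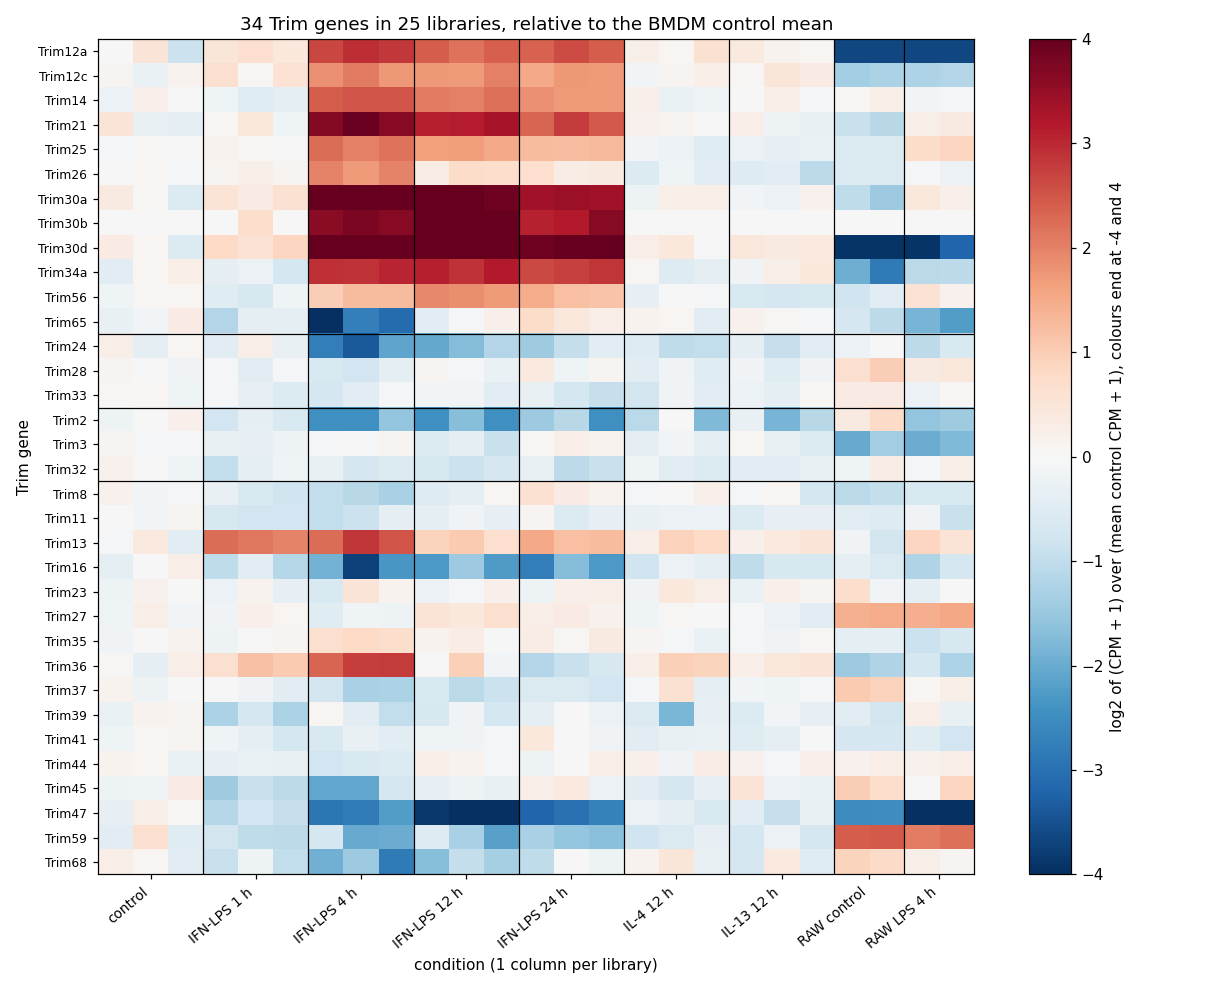
Level of each of the 34 tested Trim genes (rows) in each of the 25 libraries (columns), as log2 of CPM + 1 over the mean control level + 1. Red is above and blue below the BMDM control mean. The horizontal lines set off the innate and antiviral members, the chromatin corepressors, the NHL members and the rest. Red fills most of the top block from 4 h of IFN-γ-primed LPS on, and the IL-4 and IL-13 columns stay pale.

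Most of the members that rose belong to a list of innate and antiviral TRIM genes. Of its 12 tested members, 10 were higher at 4 h, with Trim65 lower and Trim56 up by less than the cutoff, 10 were higher at 12 h and 8 at 24 h. The median log2 fold change of the list was 0.10 at 1 h, then 2.64 (4 h), 2.20 (12 h) and 2.13 (24 h), beside -0.03, -0.07, -0.03 and 0.02 for all genes. The list was drawn up with earlier results of these data known, so its count is a description. The chromosome 7 cluster has 9 genes, of which 6 were tested, and all 6 rose. Among them, Trim30b was at 0 counts in all control libraries and passed the filter only through the groups where it was high. Its rise was thus fixed in advance in this count and in that of the list. Elsewhere in the genome, 7 of the 24 members tested in the time course rose.

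Trim30a (chr7:104409025-104465193, minus strand), a dampener of Toll-like receptor signalling in mice that acts on TAB proteins, rose furthest in level. It stood at 44.96, 35.6 and 23.7 CPM in the 3 control libraries, 51.3, 43.6 and 53.03 at 1 h, 624, 686 and 699.8 at 4 h, 589.9, 580.3 and 527 after 12 h and 365, 382 and 364 after 24 h. Every library from 4 h on lay far above every control and 1 h library, and the level fell back between 12 and 24 h without nearing the control. The log2 fold change against control was 4.19 ± 0.13 (SE, edgeR adjusted p = 1.91e-31) at 4 h. Its neighbour Trim30d (chr7:104470014-104507849, minus strand) stood at 17.98, 15.1 and 9.49 CPM in control libraries, 25.6, 21.8 and 26.8 at 1 h, 489.7, 603 and 550.1 at 4 h, 348, 358 and 416 after 12 h and 225, 265 and 259 after 24 h. The log2 fold change was 5.19 ± 0.14 (SE, edgeR adjusted p = 3.21e-33) at 4 h, a 36.4-fold rise. At 1 h, Trim30d was already above all control libraries, by 0.76 ± 0.21 (SE, edgeR adjusted p = 0.00259) on the log2 scale, which passed the adjusted p and not the fold cutoff. Stretches of 101 bases shared word for word made up 4.77% of the longest Trim30a and 5.5% of the longest Trim30d transcript, and reads in these stretches map equally well to both. Shorter or nearly identical stretches were not searched.

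Trim30b (chr7:104355382-104369884, minus strand), the third Trim30 gene of the cluster, went from no counts to a clear signal. All 3 control libraries, all IL-4 and IL-13 libraries and all RAW264.7 libraries were at 0 counts, and the 1 h libraries held 0, 1 and 0. The counts were 13, 16 and 14 at 4 h (11.3, 12.7 and 11.5 CPM), 58, 37 and 99 after 12 h (33.8, 24.1 and 59.2 CPM) and 15, 16 and 27 after 24 h (7.39, 7.99 and 11.5 CPM). Set against a floor of 3 counts over the control group, Trim30b was at least 22.3-fold higher at 4 h, at least 73.4-fold higher at 12 h and at least 16.9-fold higher at 24 h. Its peak at 12 h was apart from 4 h by a log2 fold change of 1.72 ± 0.28 (SE, edgeR adjusted p = 4.01e-06), and without the highest 12 h library this was 1.32, under the cutoff.

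The remaining tested members of the cluster also rose by 4 h and stayed up. Trim34a (chr7:104244457-104262234, plus strand) stood at 10.1, 14.6 and 16.9 CPM in control libraries, 10.6, 11.5 and 8.08 at 1 h, 111, 109 and 122 at 4 h, 127, 110.1 and 133 after 12 h and 90.6, 98.4 and 107 after 24 h, and its log2 fold change was 2.96 ± 0.17 (SE, edgeR adjusted p = 9.09e-21) at 4 h and 3.08 ± 0.16 (SE, edgeR adjusted p = 5.15e-22) after 12 h. The libraries of 4 and 12 h overlapped. In Trim34a, 22.3% of the 101-base stretches also occur in Trim34b, which had too few counts to read, and reads there map to both genes, so the level of Trim34a is uncertain to that extent. Trim12a (chr7:104299894-104315466, minus strand) went from 11.6, 16.7 and 5.8 CPM in control libraries to 78.3, 94.8 and 87.2 at 4 h, 64.8, 55.4 and 64.6 after 12 h and 62.1, 74.4 and 65.8 after 24 h, with a log2 fold change of 2.85 ± 0.20 (SE, edgeR adjusted p = 1.21e-17) at 4 h. Trim12c (chr7:104338754-104353362, minus strand) started higher, at 37.6, 29.2 and 38.5 CPM, and reached 128, 153 and 118 at 4 h, 120.2, 117 and 145 after 12 h and 102, 119.9 and 117 after 24 h, a log2 fold change of 1.84 ± 0.15 (SE, edgeR adjusted p = 2.41e-15) at 4 h. For Trim12c the 4, 12 and 24 h libraries formed 1 plateau with overlapping values, and 7.42% of its 101-base stretches also occur in Trim12a or Trim5.

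Outside the cluster, Trim21 (chr7:102557921-102565486, minus strand), the cytosolic antibody receptor that marks antibody-coated viruses for degradation, had the largest fold among members that rose. It stood at 17.5, 9.72 and 8.96 CPM in control libraries, 12.8, 16.7 and 10.6 at 1 h, 166, 200 and 162 at 4 h, 111, 114 and 129 after 12 h and 64.5, 88.9 and 70.1 after 24 h, a log2 fold change of 3.78 ± 0.18 (SE, edgeR adjusted p = 5.54e-24) at 4 h. The groups of 4, 12 and 24 h did not overlap with one another and stepped down from the 4 h peak. Trim14 (chr4:46493781-46536141, minus strand), a mitochondrial adaptor of RIG-I signalling, went from 41.3, 56.2 and 47.5 CPM in control libraries to 261, 279.6 and 279.6 at 4 h, 208, 199 and 224 after 12 h and 174, 160.4 and 159 after 24 h, a log2 fold change of 2.42 ± 0.12 (SE, edgeR adjusted p = 2.84e-23) at 4 h. At 1 h it stood at 42.9, 33.99 and 36.4 CPM, which overlapped the control libraries. Trim25 (chr11:88999376-89020293, plus strand), the ligase known for ubiquitin chains on RIG-I and itself an interferon-induced gene, was the most abundant gene of the innate list per length at rest (13.5 CPM per kb of exon).

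Trim25 measured 74.6, 80.5 and 78.04 CPM in control libraries, 86.4, 80.8 and 77.8 at 1 h, 373, 315 and 353 at 4 h, 245, 249 and 224 after 12 h and 189, 184 and 191 after 24 h. Its log2 fold change was 2.08 ± 0.11 (SE, edgeR adjusted p = 2.27e-22) at 4 h, 1.55 ± 0.11 (SE, edgeR adjusted p = 1.96e-17) after 12 h and 1.24 ± 0.11 (SE, edgeR adjusted p = 4.11e-14) after 24 h, the last under the fold cutoff although no 24 h library came near the control range. Trim26 (chr17:36837134-36859398, plus strand), which acts on the transcription factor IRF3, made a short pulse: 24.3, 26.5 and 23.7 CPM in control libraries, 101, 83.6 and 101 at 4 h, 30.9, 41.7 and 40.7 after 12 h and 39.9, 30.5 and 32.5 after 24 h. Only its 4 h level passed both cutoffs, with a log2 fold change of 1.86 ± 0.16 (SE, edgeR adjusted p = 2.11e-14). Trim56 (chr5:137105644-137116209, minus strand), a ligase of the STING and Toll-like receptor 3 pathways, was late: 18.5, 21.6 and 22.1 CPM in control libraries, 14.5, 12.8 and 18.2 at 1 h, 41.7, 51.8 and 50.98 at 4 h, 81.1, 78.1 and 69.4 after 12 h and 59.6, 48.96 and 46.6 after 24 h. It passed both cutoffs at 12 h, with a log2 fold change of 1.80 ± 0.16 (SE, edgeR adjusted p = 1.59e-13), and the 12 h libraries lay above those of the other times.

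The other 2 members that rose are outside the innate list, and neither was called after 4 h. Trim13 (chr14:61598247-61605946, plus strand), a ligase anchored in the endoplasmic reticulum membrane, was the 1 member called at 1 h. It stood at 6.35, 9.18 and 4.75 CPM in control libraries, 35.1, 32.7 and 29.8 at 1 h, 35.7, 54.97 and 43.6 at 4 h, 13.4, 14.98 and 11.4 after 12 h and 21.2, 16.99 and 17.5 after 24 h. Its log2 fold change was 2.21 ± 0.24 (SE, edgeR adjusted p = 1.11e-10) at 1 h and 2.65 ± 0.24 (SE, edgeR adjusted p = 1.55e-13) at 4 h, and it dropped by 12 h to a level that was above control by 0.89 ± 0.29 (SE, edgeR adjusted p = 0.00849), short of the fold cutoff. At 24 h it passed the cutoffs only when control library 2 was left out, at 1.70. Trim36, a microtubule-associated ligase with a COS box, stood at 4.76, 3.24 and 5.8 CPM in control libraries, 7.805, 11.5 and 10.6 at 1 h, 26.96, 37.4 and 37.8 at 4 h, 4.67, 9.77 and 4.19 after 12 h and 1.48, 1.998 and 2.56 after 24 h. Its log2 fold change at 4 h was 2.79 ± 0.29 (SE, edgeR adjusted p = 1.12e-11), and all 3 libraries of 24 h lay below all 3 control libraries, by -1.18 ± 0.48 (SE, edgeR adjusted p = 0.0316), which missed the adjusted p.

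**Figure D3:**
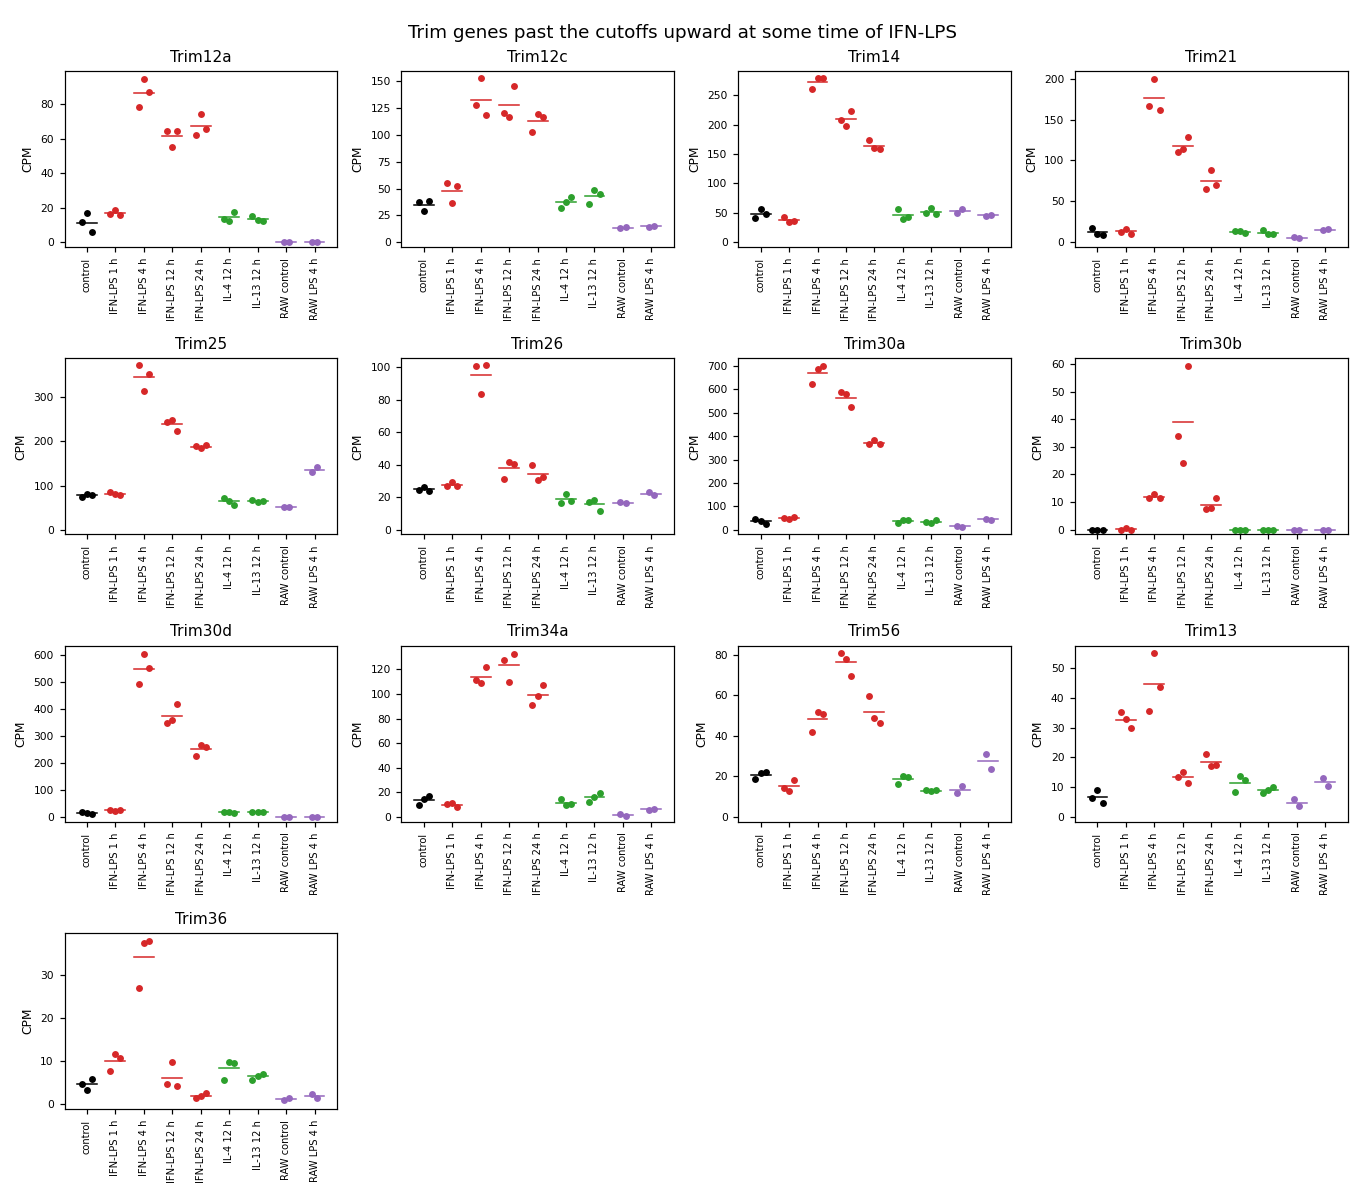
CPM in each library (points, with the group mean as a line) for the 13 Trim genes that rose at some time of IFN-γ-primed LPS, each panel with its own linear axis. Black is control, red IFN-γ-primed LPS, green IL-4 or IL-13 and purple RAW264.7. Most genes peak at 4 h, Trim56 and Trim30b peak at 12 h, and Trim13 is already up at 1 h. Most green points overlap the controls or lie close to them, and those of Trim25 and Trim26 lie below them. The IL-13 points also lie below the controls in Trim56 and just above them in Trim30d.

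A group of 4 members fell. Trim65 (chr11:116121846-116131128, minus strand), known for ubiquitin chains on the RNA sensor MDA5, fell at 4 h and rose again by 12 h: 17.5, 19.98 and 26.9 CPM in control libraries, 8.92, 16.03 and 16.2 at 1 h, 0, 2.39 and 1.64 at 4 h, 15.8, 20.2 and 25.1 after 12 h and 36.4, 29.5 and 26.1 after 24 h. The log2 fold change was -3.97 ± 0.46 (SE, edgeR adjusted p = 2.41e-10) at 4 h against control and 3.81 ± 0.47 (SE, edgeR adjusted p = 3.48e-09) at 12 h against 4 h. Without library 2 of 4 h these were -4.59 and 4.45. It was the 1 member of the innate list that fell. Trim47 (chr11:116105752-116127210, minus strand), a PRY/SPRY ligase whose annotated span overlaps that of Trim65 on the same strand, followed another course: 30.7, 45.9 and 40.1 CPM in control libraries, 17.3, 22.4 and 20.2 at 1 h, 4.35, 4.78 and 7.401 at 4 h, 1.75, 0 and 0.598 after 12 h and 3.45, 3.997 and 5.13 after 24 h. The change on the log2 scale was -2.88 ± 0.29 (SE, edgeR adjusted p = 2.65e-12) at 4 h and -5.53 ± 0.38 (SE, edgeR adjusted p = 1.84e-17) after 12 h, when the 3 libraries held 3, 0 and 1 counts, and without library 1 of 12 h the latter was -6.72. Reads in the stretch shared by both genes could not be assigned to either, and 3.25% of the 101-base stretches of Trim65 also occur in Trim47.

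Trim24 (chr6:37870811-37966296, plus strand), a chromatin reader and nuclear receptor coregulator, fell at 4 h and lay between the 4 h and control levels later, going from 20.6, 13.5 and 18.5 CPM in control libraries and 12.8, 21.2 and 14.1 at 1 h to 1.74, 0.797 and 3.29 at 4 h, 3.501, 4.56 and 7.17 after 12 h and 5.91, 8.49 and 12.4 after 24 h. The log2 fold change was -3.21 ± 0.44 (SE, edgeR adjusted p = 2.15e-08) at 4 h and -1.85 ± 0.33 (SE, edgeR adjusted p = 3.53e-06) after 12 h. Trim16 (chr11:62820231-62850808, plus strand), a RING-less member linked to autophagy of damaged lysosomes, stood at 9.52, 12.4 and 15.3 CPM in control libraries and 5.57, 8.98 and 5.05 at 1 h, then 2.61, 0 and 1.64 at 4 h, 1.75, 3.91 and 1.79 after 12 h and 0.985, 2.997 and 1.71 after 24 h. It stayed low to the end of the course, with a log2 fold change of -3.18 ± 0.53 (SE, edgeR adjusted p = 1.09e-06) at 4 h and -2.71 ± 0.42 (SE, edgeR adjusted p = 2.56e-07) after 24 h. Without library 3 of 4 h the 4 h value of Trim24 was -3.80, and that of Trim16 was -3.90 without library 1 and -2.55 without library 2. The calls on these 4 genes rest on 0 to 9 counts per library at 4 h. Trim68, Trim2 and Trim59 had too few counts for the test in the time course. Trim68 held 14, 12 and 8 counts in control libraries and 1, 2 and 0 at 4 h, Trim2 held 7, 8 and 10 and 0, 0 and 1, and Trim59 held 8, 19 and 8 and 4, 1 and 1. With every gene of at least 1 count kept, these 3 and Trim62 passed the cutoffs too, which made 8 lower members at 4 h, and with at least 10 counts asked of every library, 0 of the 4 first named could be tested.

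The steps between neighbouring times place the changes. Between 1 and 4 h, 11 members were higher (7.07% of all genes) and 4 lower (6.95%), and 38.9% of all genes passed the adjusted p by any size. The 11 were Trim12a, Trim14, Trim21, Trim25, Trim26, Trim30a, Trim30b, Trim30d, Trim34a, Trim36 and Trim56, and the 4 were Trim16, Trim24, Trim47 and Trim65. Trim30b had almost no counts at 1 h, so its step was fixed in advance as well. The Trim16 step, -2.19 ± 0.61 (SE, edgeR adjusted p = 0.00258), was lost with DESeq2 and on leaving out library 2 of 1 h or of 4 h, since the adjusted p rose, while the change stayed between -2.92 and -1.57 over all single libraries left out. Trim12c was higher as well without library 1 of 1 h or library 3 of 4 h. Between 4 and 12 h, 2 were higher, Trim65 and Trim30b (5.2% of all genes), and 3 were lower, Trim13, Trim36 and Trim47 (4.45% of all genes, and 35.9% by any size). The log2 fold change of Trim36 was -2.47 ± 0.28 (SE, edgeR adjusted p = 4.2e-10). Between 12 and 24 h, 1 was higher, Trim47 (0.418% of all genes), and 1 lower, Trim30b (0.867%, and 14.2% by any size). The rise of Trim47, 2.32 ± 0.62 (SE, edgeR adjusted p = 0.00437), was lost with DESeq2 and on leaving out library 2 or 3 of 12 h or library 3 of 24 h, and ran from 1.83 to 3.52 over all single libraries left out. The fall of Trim30b was -2.06 ± 0.26 (SE, edgeR adjusted p = 1.03e-07), and without library 3 of 12 h Trim36 was lower as well, at -1.75.

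**Figure D4:**
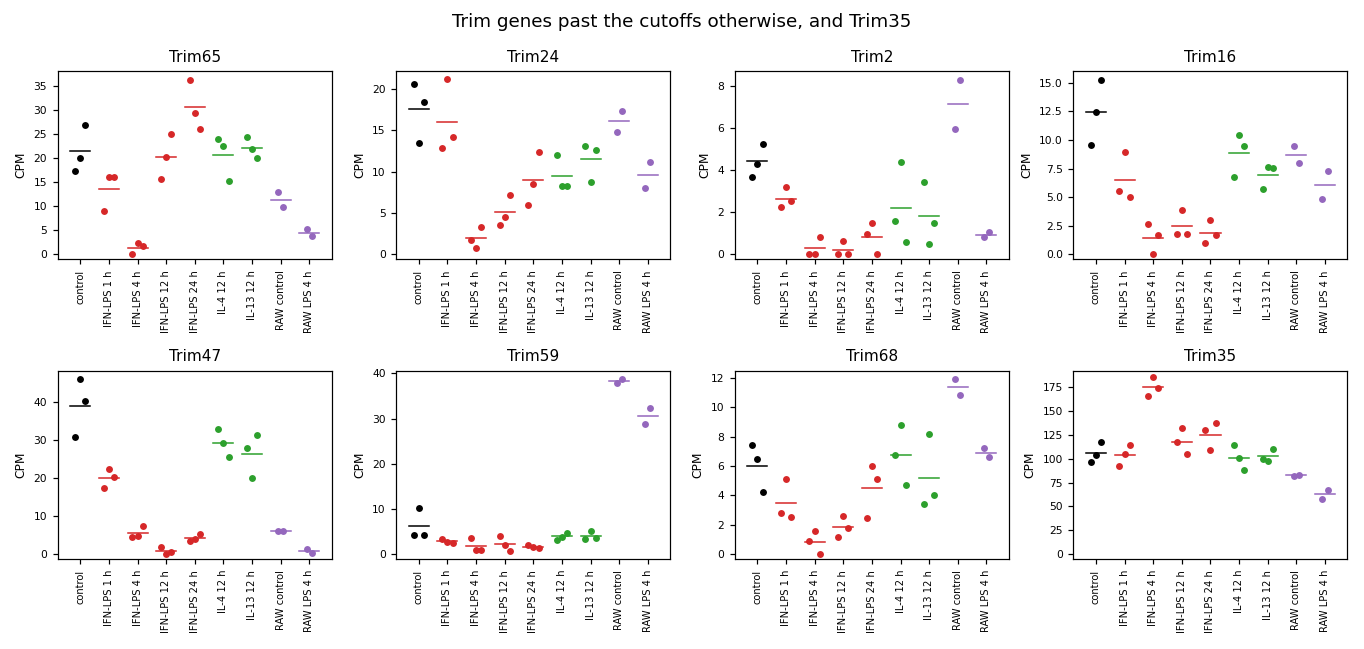
CPM in each library (points, with the group mean as a line) for the other 7 Trim genes past the cutoffs in some comparison and for Trim35, each panel with its own linear axis and colours as black for control, red for IFN-γ-primed LPS, green for IL-4 or IL-13 and purple for RAW264.7. Trim65 dips at 4 h and returns, Trim47 is lowest at 12 h, and Trim59 stands apart in RAW264.7.

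IL-4 and IL-13, the cytokines of alternative activation, moved no tested member past the cutoffs. Calls here needed a log2 fold change of 0.7. With IL-4, edgeR called 0 of 30 tested members in either direction, where 2.22% of all genes were higher, 1.64% lower and 7.63% passed the adjusted p by any size. At an unadjusted p under 0.05, 2 members were higher and 7 lower by edgeR, and 0 were higher and 4 lower by DESeq2, which also called none. With IL-13, edgeR called 0 of 30 (2.98% of all genes higher, 2.38% lower and 10.1% by any size), with 0 higher and 8 lower at an unadjusted p under 0.05, and by DESeq2 0 and 4. Between IL-13 and IL-4, 0 of 30 differed (0.054% of all genes higher, 0.0108% lower and 0.108% by any size), with 1 lower at an unadjusted p under 0.05 by edgeR and 0 by DESeq2. The log2 fold changes of the 30 members ran from -0.89 to 0.82 with IL-4 and from -0.85 to 0.46 with IL-13, with standard errors from 0.11 to 0.39. The summed family level was 787 to 833 CPM with IL-4 and 790 to 810 CPM with IL-13.

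The members nearest to a call had lower levels than control. Trim24 measured 11.98, 8.24 and 8.28 CPM with IL-4 and 20.6, 13.5 and 18.5 CPM in control libraries, a log2 fold change of -0.89 ± 0.26 (SE, edgeR adjusted p = 0.0142). All 3 IL-4 libraries lay below the controls, and Trim24 passed the cutoffs when control library 2 (-1.04) or IL-13 library 1 (-0.88) was left out. With IL-13, Trim26 measured 17.1, 17.9 and 11.5 CPM against 24.3, 26.5 and 23.7, a log2 fold change of -0.71 ± 0.21 (SE, edgeR adjusted p = 0.0115). Trim47 measured 27.9, 19.96 and 31.1 CPM with IL-13 against 30.7, 45.9 and 40.1, a log2 fold change of -0.59 ± 0.18 (SE, edgeR adjusted p = 0.0146), and was called without control library 1 or IL-13 library 3, at -0.73 both times. Trim56 measured 13.1, 12.8 and 13.1 CPM with IL-13 and 18.5, 21.6 and 22.1 in control libraries, -0.70 ± 0.22 (SE, edgeR adjusted p = 0.0184) on the log2 scale.

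Because the control cells are labelled as cultured for 4 h, the treatments were also compared at the same 12 h. IFN-γ-primed LPS was above IL-4 for 10 of 31 tested members (8.76% of all genes) and below it for 3 (7.53%, and 42.8% by any size). It was above IL-13 for 10 (8.75% of all genes) and below it for 2 (7.4%, and 42.3% by any size). The 10 were in both comparisons Trim12a, Trim12c, Trim14, Trim21, Trim25, Trim30a, Trim30b, Trim30d, Trim34a and Trim56. Here Trim30b passed the filter only through the IFN-γ-primed LPS libraries. The lower members Trim16, Trim47 and Trim68 passed it only through the cytokine libraries. The directions of these members were thus fixed in advance. For Trim30d, the log2 fold change was 4.44 ± 0.14 (SE, edgeR adjusted p = 1.16e-24) against IL-4 and 4.27 ± 0.14 (SE, edgeR adjusted p = 1.6e-24) against IL-13. Trim47 was the deepest of the lower members, with 1.75, 0 and 0.598 CPM under IFN-γ-primed LPS and, with IL-4, 32.8, 29.1 and 25.4 CPM. Its log2 fold change was -5.07 ± 0.42 (SE, edgeR adjusted p = 9.17e-13). Without library 1 of IFN-γ-primed LPS it was -6.28. Trim16 was below both cytokines, at -1.85 ± 0.43 (SE, edgeR adjusted p = 0.000477) against IL-4 and -1.51 ± 0.45 (SE, edgeR adjusted p = 0.00516) against IL-13, and the IL-13 call was lost with DESeq2 and on leaving out IFN-γ-primed LPS library 1 or 3 or IL-13 library 2 or 3, with values from -1.95 to -1.31 over all single libraries left out. Trim68, a PRY/SPRY ligase, was below IL-4 alone, at 1.17, 2.605 and 1.79 CPM against 6.77, 8.79 and 4.73, a log2 fold change of -1.88 ± 0.52 (SE, edgeR adjusted p = 0.00256), and this call was lost with DESeq2 and, on the adjusted p, without IFN-γ-primed LPS library 1 or IL-4 library 2, while the change stayed between -2.17 and -1.63. Trim12c was above IL-13 by 1.54 ± 0.14 (SE, edgeR adjusted p = 9.04e-12), and fell short of the cutoff, at as little as 1.43, without IFN-γ-primed LPS library 3 or IL-13 library 1.

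In RAW264.7, LPS alone for 4 h lowered 2 TRIM genes past the study's cutoff for this line, a log2 fold change of 2, and raised several innate members by less than it. Of 30 tested members, 0 were higher past the cutoff (2.39% of all genes) and 2 were lower (0.829%). The 2, Trim47 and Trim2, passed the filter only through the control libraries, where they were high, so their direction was fixed in advance. By DESeq2 none was called in either direction, and at an unadjusted p under 0.05 edgeR put 9 members higher and 10 lower, and DESeq2 6 and 5. By any size, edgeR put 6 members higher and 5 lower, where 27.9% of all genes moved. The 6 were Trim13, Trim21, Trim25, Trim30a, Trim34a and Trim56. All 6 also passed the adjusted p upward in BMDMs at 4 h, where 51.5% of all genes passed it in either direction. The share of all genes raised in both cell types was not computed, so this overlap is only a description.

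Trim25 went from 51.2 and 51.4 to 130.2 and 141 CPM, a log2 fold change of 1.45 ± 0.12 (SE, edgeR adjusted p = 7.74e-33). Trim30a went from 16.8 and 11.9 to 46.9 and 40.6 CPM, 1.63 ± 0.19 (SE, edgeR adjusted p = 9.39e-17) on the log2 scale, and Trim21 from 5.96 and 5.07 to 14.4 and 15.6, 1.48 ± 0.31 (SE, edgeR adjusted p = 1.12e-05). In each the treated libraries lay above both controls, and the log2 fold changes in BMDMs at 4 h, given above, were larger. Trim34a rested on 8 and 3 counts in control libraries and 15 and 18 with LPS, a log2 fold change of 1.67 ± 0.48 (SE, edgeR adjusted p = 0.00202), and passed the cutoff of 2 without control library 1, at 2.49. Trim14 measured 49.5 and 57.2 CPM in control libraries and 44.5 and 46.9 with LPS, and missed the adjusted p. Trim12c measured 12.98 and 14.1 CPM in control libraries and 14.4 and 14.9 with LPS, and missed it too. Both had risen in BMDMs at 4 h. The agents differ between the cell types, since the line received no IFN-γ, and the difference in response was not tested. The fold cutoffs differ too: Trim30a and Trim34a were past 1.5, the cutoff of the BMDM time course, and not past 2.

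Of the 2 members that fell past the cutoff, Trim47 held 17 and 17 counts in control libraries and 3 and 1 with LPS, a log2 fold change of -2.91 ± 0.60 (SE, edgeR adjusted p = 8.23e-06), and was lost without LPS library 2, at -2.25, and was -3.91 without LPS library 1. Trim2, an NHL-repeat ligase best known from neurons, held 17 and 23 counts and 2 and 3 with LPS, a log2 fold change of -2.84 ± 0.55 (SE, edgeR adjusted p = 1.96e-06). Trim65 fell from 12.98 and 9.77 to 5.21 and 3.82 CPM, -1.30 ± 0.35 (SE, edgeR adjusted p = 0.000893), short of the fold cutoff. Trim28 and Trim37 were lower by any size as well.

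**Figure D5:**
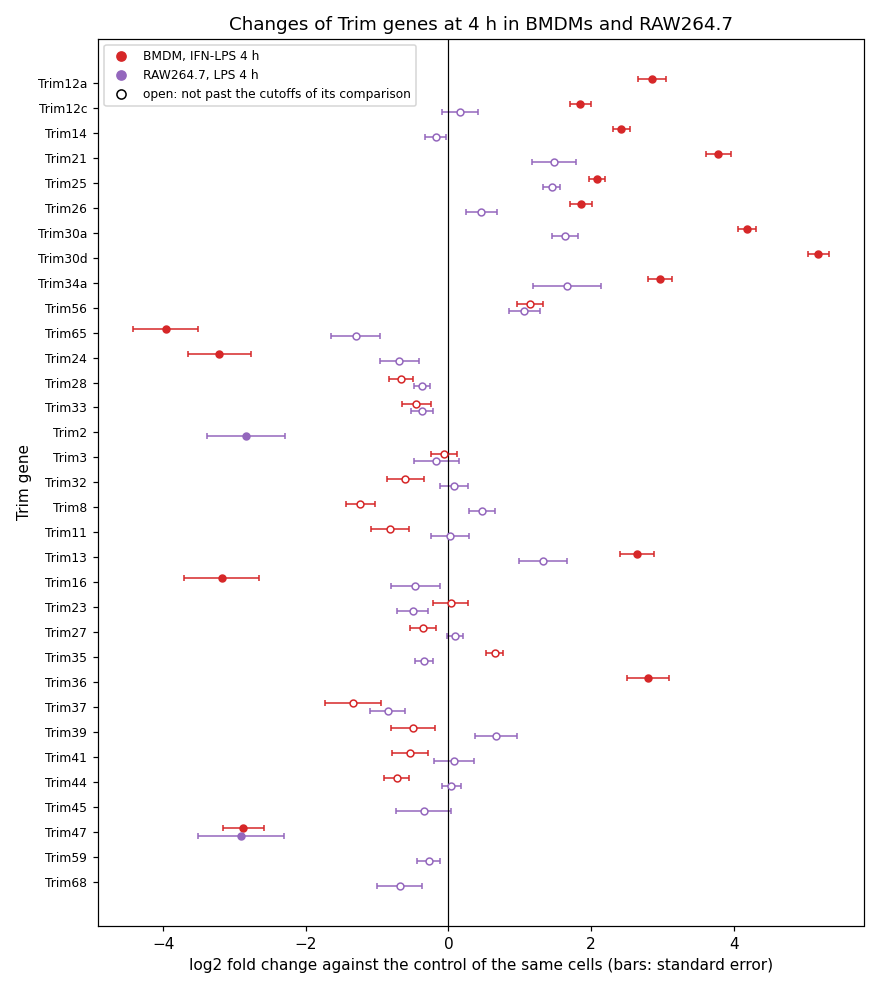
Log2 fold change (points) and standard error (bars) of each Trim gene tested, at 4 h of IFN-γ-primed LPS in BMDMs (red) and 4 h of LPS in RAW264.7 (purple), each against the control of the same cells. Filled points passed the cutoffs of their comparison. Trim30b is left out because its controls are at 0. Where both were measured, the red points of the innate members other than Trim65 lie further right than the purple ones, and Trim47 lies at -2.88 and -2.91.

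At rest, 5 members separated the line from the primary cells past the cutoffs, in shares no larger than those of all genes. Against BMDM control, 1 of 32 tested members was higher in untreated RAW264.7 (3.12%, against 9.91% of all genes). Lower were 4 (12.5%, against 12.5%). Of these 5, Trim12a, Trim30d, Trim34a and Trim59 passed the filter only through the cells where they were high. Their direction was thus fixed in advance. By any size, 4 were higher and 15 lower (59.4%, against 70.5% of all genes). Trim59, a transmembrane ligase, measured 37.9 and 38.7 CPM in the line and 4.23, 10.3 and 4.22 in BMDMs, a log2 fold change of 2.57 ± 0.24 (SE, edgeR adjusted p = 9.49e-27). Trim12a was at 0 counts in all 4 RAW264.7 libraries and at 22, 31 and 11 counts in BMDM control libraries, at least 21.3-fold lower against a floor of 3 counts over the RAW264.7 control group. Trim30d was at 0 in both controls and at 0 and 2 counts with LPS, while BMDM controls held 34, 28 and 18 counts, at least 26.6-fold lower.

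Trim34a measured 2.81 and 1.09 CPM in the line against 10.1, 14.6 and 16.9 in BMDMs, -2.83 ± 0.40 (SE, edgeR adjusted p = 5.12e-12), or -3.63 without RAW264.7 control library 1, and Trim47 5.96 and 6.15 against 30.7, 45.9 and 40.1, -2.72 ± 0.24 (SE, edgeR adjusted p = 9.27e-30). Trim30a, the neighbour of Trim30d, was present at 16.8 and 11.9 CPM, and Trim12c, the neighbour of Trim12a, at 12.98 and 14.1. The summed family level of the line, 791 and 825 CPM untreated and 841 and 874 with LPS, compared with 868 to 916 in resting BMDMs. Trim36 was lower as well without BMDM control library 2 (-2.08), and Trim3 without RAW264.7 control library 2 (-2.22). Cell type, mouse strain, culture medium and library batch cannot be told apart in this comparison.

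The other 14 tested members passed the cutoffs in no comparison. Trim35, a PRY/SPRY ligase, was the most abundant of these, with 96.8, 104 and 118 CPM in control BMDMs, 166, 186 and 174 at 4 h of IFN-γ-primed LPS, 117, 132 and 105 after 12 h, 130, 109 and 137 after 24 h and 81.7 and 83.3 in resting RAW264.7. Its 4 h libraries lay above those of the other times, by 0.65 ± 0.12 (SE, edgeR adjusted p = 6.63e-06) against control, and the rise did not reach the fold cutoff. Trim28, the KRAB zinc finger corepressor also named KAP1, ran from 58.5 to 70.9 CPM in control libraries and from 37.4 to 50.2 at 4 h, a log2 fold change of -0.67 ± 0.17 (SE, edgeR adjusted p = 0.000647). Trim33, of the same corepressor branch, had a log2 fold change of -0.68 ± 0.19 (SE, edgeR adjusted p = 0.00171) after 24 h. Trim24 was the 1 of 3 tested members of this branch past the cutoffs, at 4 and 12 h. Trim8, a regulator of cytokine and NF-κB signalling, ran from 44.3 to 53.4 CPM in control libraries, from 18.9 to 23.5 at 4 h and from 52.6 to 73.4 after 24 h. Its log2 fold change at 4 h was -1.24 ± 0.20 (SE, edgeR adjusted p = 8.94e-07). Trim27 was higher in the line than in BMDMs, at 91.2 to 93.8 against 29.1 to 39.97 CPM, a log2 fold change of 1.43 ± 0.14 (SE, edgeR adjusted p = 2.19e-25). Trim3, Trim11, Trim32, Trim37, Trim39, Trim41 and Trim44 also passed the adjusted p in some comparison, and Trim23 and Trim45 in none. Trim37 passed both cutoffs at 4 h when library 1 of 4 h was left out, at -1.59.

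Per kilobase of exon, Trim35 (23.04 CPM per kb), Trim28 (15.6), Trim47 (14.2), Trim25 (13.5) and Trim8 (12.9) were the most abundant members in control BMDMs. At 4 h of IFN-γ-primed LPS the order was Trim30a (163), Trim30d (146), Trim14 (63.02), Trim25 (60.3) and Trim21 (47.4). In resting RAW264.7 it was Trim28 (27.7), Trim35 (17.9), Trim27 (16.8), Trim14 (12.3) and Trim59 (11.4). Trim25 was the 1 member among the leading 5 both in control BMDMs and at 4 h.

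Lists of pathway partners differed in how many of their genes were called, and are read beside the shares of all genes given above for each time (higher 5.04%, 11.4%, 8.87% and 7.93%, lower 11.4% at 4 h). Among 3 tested TRIM proteins with other symbols, Pml, the organiser of nuclear bodies, went from 34.9, 22.1 and 18.98 CPM in control libraries to 296, 247 and 275 at 4 h, a log2 fold change of 3.35 ± 0.15 (SE, edgeR adjusted p = 7.29e-25), and was lower with IL-4, at 12.5, 14.8 and 12.4 CPM, -0.95 ± 0.23 (SE, edgeR adjusted p = 0.00242). Mefv, which encodes pyrin, went from 5.29, 4.86 and 4.22 to 80.3, 95.6 and 94.5 CPM at 1 h and 220, 215 and 252 after 12 h, 5.48 ± 0.18 (SE, edgeR adjusted p = 7.14e-30). Both were called at 4, 12 and 24 h. In the RIG-I and STING list, 2 of 11 tested genes were higher at 1 h, 7 at 4 h, 6 after 12 h and 5 after 24 h, and 0 were lower. The list's median log2 fold change at 4 h was 2.11. Irf7, a master factor of the interferon response, had the largest change at 4 h, from 5.29, 5.401 and 7.38 to 1167, 1022 and 937 CPM, 7.34 ± 0.15 (SE, edgeR adjusted p = 1.56e-38). In the ISG15 conjugation list, whose enzymes attach a ubiquitin-like tag, 3 of 5 were higher at 1 h and all 5 from 4 h on, with a median of 4.79 at 4 h, and Isg15 itself had 9.59 ± 0.20 (SE, edgeR adjusted p = 1.3e-37) from 2 to 4 counts in control libraries. In the TAK1 list, with a median of 0.48, 2 of 9 were higher at 4 h, Tab2 and Myd88, and Myd88 was the 1 gene higher at 12 and 24 h. Of 7 partners of the corepressor branch, with a median of -1.02, Morc3 was higher and Atf7ip lower at 4 h. In RAW264.7 with LPS, 4 of 10 genes of the RIG-I list and 2 of 5 of the ISG15 list were higher, against 2.39% of all genes.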

How the data were processed

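Paired-end RNA-seq of 25 libraries was read from the tables the authors deposited, which hold raw counts of reads per gene from STAR 2.5.1 on mm10, after CASAVA 1.8.2 and Trimmomatic 0.33 per the labels. The sense column was used. The labels name polyA RNA while their protocol describes removal of ribosomal RNA. Rn45s took 20.1% to 39.8% of counts and was left out with the rows that name no gene. Reads on no feature made 62.7% to 69.1% of those on a gene, on several or on none. Replicates differed beyond sampling noise (chi-square per degree of freedom 1.30 to 4.53 over 23 pairs).

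CPM used TMM factors over all libraries. edgeR 4.0.16 (R 4.3.3, limma 3.58.1) fitted 5 models, in which 9252 to 9879 genes passed filterByExpr, with robust quasi-likelihood tests and Benjamini-Hochberg adjustment over all genes tested. The models were the time course (15 libraries), IL-4, IL-13 and control (9), RAW264.7 (4), resting cells (5) and the 12 h treatments (9). The script was tested on simulated data. Fold cutoffs followed the study, and the steps and 12 h comparisons took that of IFN-γ-primed LPS. Any member that was tested may be named, and values per library are given for members past the cutoffs in some comparison and the 5 with the highest mean CPM. The members and lists were chosen with earlier results of these data known. Alternatives were DESeq2 1.42.0, other filters, unstranded counts, Rn45s kept, the fold cutoff as null hypothesis, a replicate block, only the groups compared and each library left out. Promoters came from RefSeq and positions from GENCODE M21. A further motif search is not reported here. Figures used matplotlib 3.10.9.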

Additional observations from a re-analysis of the deposited data

How the results depend on the processing

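No call on a member turned its direction under any alternative. Of 94 calls, 88 kept their side of the cutoffs with DESeq2, 93 with every gene of at least 1 count kept, 93 with the replicate block, 94 with unstranded counts and 94 with Rn45s kept. With only the groups compared, 83 of 83 did, and with the fold cutoff as the null hypothesis 65 of 94. When 10 counts were asked of every library, 53 calls could still be tested and 51 held. Low counts limit the lower members most, and that filter removes them by construction.

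With at least 10 counts in every library, the number of members past the cutoffs was 0 for 1 h higher, 0 for lower at 4, 12 and 24 h, 0 for 4 h against 1 h lower, 0 in both directions for 12 h against 4 h and for 24 h against 12 h, 0 for RAW264.7 LPS lower, 0 for resting RAW264.7 higher and 1 for lower, and 0 for IFN-γ-primed LPS below IL-4 and below IL-13. With the fold cutoff as null hypothesis it was 0 for 1 h higher, 1 for 12 h lower, 2 for 4 h against 1 h lower, 1 each way for 12 h against 4 h, 0 each way for 24 h against 12 h, 0 for RAW264.7 LPS lower, 0 for resting RAW264.7 higher, and 1 below IL-4 and 1 below IL-13. With every gene of at least 1 count kept, 8 members were lower at 4 h, 5 at 12 h and 4 at 24 h, 1 was higher in RAW264.7 with LPS (Trim34b) and 1 was below IL-13. In that setting Trim6, with at most 10 counts in a library, was higher at 12 h (2.69) and 24 h (2.24). It was also above IL-4 (3.05) and IL-13 (2.74) at 12 h of IFN-γ-primed LPS. With DESeq2, 0 were higher at 24 h against 12 h, 0 lower in RAW264.7 with LPS and 1 below IL-13. With only the groups compared, 0 were higher at 24 h against 12 h and 1 was lower with IL-4 (Trim24, -0.88). With unstranded counts, 2 were lower at 24 h against 12 h, Trim36 with Trim30b. Trim68 was lower at 4 h and 12 h with unstranded counts (-2.83 and -1.76) and with Rn45s kept (-2.81 and -1.73). Where fewer genes or counts do not give the reason, the cause was not tested.

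With the replicate block, 1 member was below IL-13 in place of 2, since Trim16 was lost, and no other call changed. Whether libraries with the same replicate number belong together is not stated. In the time course, 3 of 30 pairs with the same number correlated above 0.1, with a mean r of 0.0215 and a maximum of 0.176. The mean r was -0.0108 for pairs with different numbers. In resting cells the mean r for the same number was -0.0246. In RAW264.7 it was -0.00379, against 0.00379 for different numbers. With 2 libraries per group these values mirror each other by construction, so they cannot show whether libraries were paired.

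With each library left out in turn, the count ranged from 1 to 2 for 12 h against 4 h higher, 0 to 1 for 24 h against 12 h higher and 1 to 2 for lower, 0 to 1 for IL-4 lower, 0 to 1 for IL-13 lower, 0 to 1 for RAW264.7 LPS higher and 1 to 2 for lower, and 1 to 2 for below IL-13. The lower members at 4 h numbered 5 to 6: Trim68 passed the filter in each of these fits, and Trim37 passed the fold cutoff without library 1 of 4 h, at -1.59. At 12 h the lower members numbered 3 to 4, with Trim68 as the added member. Dropping to 1 library in a RAW264.7 group assumes that it varies like the other group.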
